A study of Homo sapiens with 6 samples.

Results

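A pair of short hairpin RNAs against the same gene were compared with each other. MEX3A had been depleted in 2 established human ovarian tumour lines, PA-1 (ovarian teratocarcinoma) and TOV21G (ovarian clear cell carcinoma), by infection with lentivirus carrying either sh-MEX3A#1 (TRCN230492, hairpin 1 below) or sh-MEX3A#2 (TRCN230494, hairpin 2 below). The 4 libraries used in the tests were those titled with hairpin 2 in PA-1 and in TOV21G and those titled with hairpin 1 in the same lines, out of 6 libraries in all. The other 2 libraries, 1 per line, carried the scramble hairpin TRC2-Scramble_ASN0003 and served only to place the untargeted level. PA-1 was grown in EMEM with 10% serum and TOV21G in MCDB105/M199 medium with 15% serum, so line and medium cannot be told apart, while all hairpins of a line shared its medium. The design text calls each depleted culture a clone, and there was 1 library per hairpin and line. Hairpin, clone and culture therefore cannot be told apart within a line, and every p-value rests on these libraries alone. In the blocked test the spread is how differently the hairpins differed in the 2 lines, moderated across genes. It is not a spread between replicate cultures, and technical differences among the libraries enter it too. The title of the series concerns p53 degradation and ferroptosis, and the question asked of the reagents is which genes the hairpins leave at different levels.

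A short hairpin RNA is transcribed from the integrated virus, cut by DICER1 and loaded into an Argonaute protein, which then silences transcripts that pair with the guide strand. Pairing is needed over the whole guide for the intended target, but a match to the short seed of the guide can also lower other transcripts, which is why knockdown studies use more than 1 hairpin per gene. A change due to loss of the target is shared by hairpins that deplete it equally, while a seed effect belongs to 1 reagent and can recur in each cell line that expresses the matched transcript. MEX3A is an RNA-binding protein with KH domains and a RING finger that can act as a ubiquitin ligase, and its paralogs are MEX3B, MEX3C and MEX3D.

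The libraries held between 14654628 and 19495162 expected counts, and a count of 0 in a library allowed up to 3 counts, or 0.153 to 0.202 CPM (counts scaled to library size with TMM factors). Intervals and floors of this kind cover counting error only. Both lines are labelled as ovarian surface epithelial cells by source. The markers of that tissue were mixed. CALB2, LRRN4, UPK3B and LHX9 were at most 1.55 CPM in every library, MSLN was at most 0.559 CPM in PA-1 and 16.1 to 52.5 CPM in TOV21G, and WT1 reached 13.6 CPM in PA-1 and 2.14 CPM in TOV21G. KRT8 (60.0 to 216 CPM) and KRT18 (81.3 to 183 CPM), keratins of simple epithelia in general, were expressed in every library. PODXL had 3137 to 3794 CPM in PA-1 and BNC1 33.1 to 84.0 CPM in TOV21G. The summed level of the 14 listed markers was 3418 to 4214 CPM in PA-1, most of it PODXL, and 223 to 449 CPM in TOV21G. PA-1 also expressed the pluripotency genes LIN28A at 1699 to 2800 CPM and POU5F1 at 468 to 1258 CPM, and TOV21G the clear cell carcinoma gene PAX8 at 243 to 273 CPM. LIN28B and NANOG were at 0 in TOV21G. LIN28A was nevertheless present in TOV21G, at 22.3 CPM in the control, 42.1 CPM with hairpin 1 and 78.3 CPM with hairpin 2. Ribosomal protein genes took 4.20 to 5.51% of the counts of a library. The nuclear RNA MALAT1 stood apart in TOV21G, with 4315 CPM in the control, 9429 CPM with hairpin 1 and 18455 CPM with hairpin 2, against 910 to 1303 CPM in PA-1, and its part in the results below was not tested.

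MEX3A itself was measured first, since a difference in depletion would bear on every other gene. In PA-1 it stood at 137 CPM in the control, 41.2 CPM with hairpin 1 and 54.9 CPM with hairpin 2. In TOV21G the values were 78.3, 40.1 and 33.1 CPM. Both hairpins were thus below the control in both lines, with hairpin 1 the lower of the pair in PA-1 and hairpin 2 the lower in TOV21G. Hairpin 2 minus hairpin 1 came to 0.41 (counting SE 0.07) on the log2 scale in PA-1 and to -0.27 (0.09) in TOV21G. Over both lines the log2 fold change was 0.07 (SE 0.26, adjusted p = 0.942, edgeR quasi-likelihood test with cell line as a block), and it was -0.03 under scaling by total counts. Each hairpin difference here and below is hairpin 2 minus hairpin 1, so a positive value is higher with hairpin 2.

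MEX3D, the family member with the largest difference between reagents, stood in PA-1 at 37.5 CPM in the control, 43.5 CPM with hairpin 1 and 26.9 CPM with hairpin 2. In TOV21G it stood at 35.1, 49.3 and 17.7 CPM. It was thus below the control with hairpin 2 and above it with hairpin 1 in both lines, with a log2 fold change of -1.08 (SE 0.27, adjusted p = 0.299, edgeR). MEX3B differed by -0.25 and -0.44 in PA-1 and TOV21G, and MEX3C by -0.20 and 0.12, with adjusted p-values of 0.688 and 0.965 (edgeR).

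Of 15508 genes tested, 7 rose and 1 fell with hairpin 2 relative to hairpin 1 at an adjusted p under 0.05 (edgeR, Benjamini and Hochberg), which is 0.0451% and 0.00645% of the genes. Among the 7 were MMP1, COL12A1, NT5E, CXCL8, FGB and CD36, and the 1 that fell was OAZ1. At an unadjusted p under 0.05 there were 954 higher genes (6.15%) and 711 lower genes (4.58%). With 2 libraries per reagent the fit had 1 residual degree of freedom, so the spread behind each p is how differently the reagents differed in the 2 lines, moderated across genes. The same genes tested with DESeq2 gave 68 higher and 29 lower, of which 4 were among the 8, and no gene passed with edgeR when all 6 libraries entered the fit, when the cell line was not a block, when libraries were scaled by total counts, or when genes needed 5 CPM in 2 libraries. Under scaling by total counts the unadjusted calls were 661 higher and 974 lower. That scaling lowers the median difference over all genes by 0.04 in PA-1 and 0.13 in TOV21G, and differences are given relative to the median gene throughout.

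MMP1 and COL12A1 code for secreted proteins of the matrix or of its turnover. COL12A1, the fibril-associated collagen XII chain on chromosome 6 (75084326 to 75206053, GRCh38.p14), stood at 6.36, 30.3 and 183 CPM in PA-1 and 30.7, 17.8 and 86.3 CPM in TOV21G, in the order control, hairpin 1, hairpin 2. The hairpins differed by 2.59 (counting SE 0.07) and 2.27 (0.10), with a blocked log2 fold change of 2.44 (SE 0.23, adjusted p = 0.0344, edgeR). MMP1, an interstitial collagenase on chromosome 11 (102789919 to 102798160), was at 0 with hairpin 1 in both lines. Hairpin 2 gave 19 counts (0.966 CPM) in PA-1 and 604 counts (40.6 CPM) in TOV21G, against 0 and 0.325 CPM in the controls. Against the floor of 3 counts per library, it was at least 5.31-fold higher with hairpin 2 in PA-1 and at least 205-fold higher in TOV21G. It passed the filter on low counts through the hairpin 2 libraries alone, so its place among the calls (adjusted p = 0.0344, edgeR) is given as a description.

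NT5E, CD36 and CXCL8 act at the cell surface or between cells. NT5E, the ecto-5'-nucleotidase CD73 that makes adenosine (chromosome 6, 85450083 to 85495784), stood at 7.68, 36.6 and 186 CPM in PA-1 and 113, 275 and 1189 CPM in TOV21G, in the order control, hairpin 1, hairpin 2. Both hairpins were above the control in both lines and hairpin 2 was the farther, by 2.34 (counting SE 0.06) and 2.11 (0.02) over hairpin 1. Its blocked log2 fold change was 2.22 (SE 0.24, adjusted p = 0.0434, edgeR). CD36, a scavenger receptor and fatty acid carrier on chromosome 7 (80602207 to 80679274), had 0.252, 2.43 and 37.6 CPM in PA-1 and was near the floor in TOV21G, where hairpin 1 gave 2 counts and hairpin 2 gave 18. The ratio was 15.5 (95% counting interval 11.3 to 21.9) in PA-1 and 9.17 (2.20 to 81.5) in TOV21G, and the adjusted p was 0.0494 (edgeR). FGB, the fibrinogen beta chain (chromosome 4, 154562980 to 154572807), had no count in any PA-1 library. Only 1 library per hairpin therefore informs its difference, without a spread between the lines, and its place among the calls is given as a description. Its call rested on TOV21G, where it stood at 161 CPM in the control, at 27.1 CPM after hairpin 1 and at 345 CPM after hairpin 2 (blocked log2 fold change 3.66, SE 0.35, adjusted p = 0.0434, edgeR; adjusted p = 0.955, DESeq2).

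CXCL8 (interleukin 8, chromosome 4, 73740569 to 73743716) is the neutrophil chemokine, and CXCL5 lies in the same chemokine cluster (73995642 to 73998677). CXCL8 had 1 count in the PA-1 control and hairpin 1 libraries alike (0.0629 and 0.0607 CPM) and 55 counts (2.80 CPM) with hairpin 2. In TOV21G it stood at 0.909, 2.64 and 37.2 CPM. The ratio of hairpin 2 to hairpin 1 was 46.1 (95% counting interval 7.94 to 1850) in PA-1 and 14.1 (10.2 to 20.0) in TOV21G, with an adjusted p of 0.0434 (edgeR). CXCL5 stood at 12.7, 14.9 and 73.9 CPM in PA-1 and 43.9, 34.7 and 483 CPM in TOV21G. With hairpin 1 it was thus close to the control in both lines and with hairpin 2 above it. Its blocked log2 fold change was 3.07 (SE 0.37), with an adjusted p of 0.0754 by edgeR and 5.64e-09 by DESeq2.

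The bases before the RefSeq start sites (GRCh38.p14) of the 2 chemokine genes and of COL12A1 are printed. These genes were among those with the largest difference in both lines. Their promoters hold an NF-kB or a TEAD motif, and lists of target genes of both are described below. A list of AP-1 targets was not read. The capitals mark the AP-1 motif (TGANTCA), the NF-kB motif (GGAATTTCC) or the TEAD motif (GGAATG), each searched on both strands. Only these letters were searched, so other forms of a site, of NF-kB above all, are missing from the shares given. A reverse-strand match is shown on the printed strand.
CXCL8 (chr4:73740319-73740568, plus strand): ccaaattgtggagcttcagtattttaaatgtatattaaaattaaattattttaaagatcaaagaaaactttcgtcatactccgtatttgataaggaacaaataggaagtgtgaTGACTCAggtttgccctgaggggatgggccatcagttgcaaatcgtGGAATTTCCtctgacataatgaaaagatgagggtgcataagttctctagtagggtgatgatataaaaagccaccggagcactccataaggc
CXCL5 (chr4:73998678-73998927, minus strand): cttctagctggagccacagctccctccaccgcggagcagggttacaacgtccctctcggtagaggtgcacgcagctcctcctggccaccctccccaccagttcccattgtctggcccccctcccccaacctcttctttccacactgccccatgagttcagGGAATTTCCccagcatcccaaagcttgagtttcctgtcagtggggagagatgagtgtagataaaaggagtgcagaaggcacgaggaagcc
COL12A1 (chr6:75206054-75206303, minus strand): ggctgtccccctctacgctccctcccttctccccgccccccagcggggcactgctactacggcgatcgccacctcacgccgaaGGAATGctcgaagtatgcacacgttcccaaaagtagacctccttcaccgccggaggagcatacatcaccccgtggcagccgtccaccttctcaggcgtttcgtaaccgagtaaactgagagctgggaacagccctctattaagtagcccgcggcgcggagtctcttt
In the first sequence the AP-1 match began 137 bases and the NF-kB match 91 bases before the start, in the second the NF-kB match began 90 bases before it, and in the third the TEAD match began 167 bases before it. The motif letters overlap one another in no printed sequence. RefSeq promoters of 250 bases were at hand for 11755 of the 15508 genes, and 4.11% of them held the AP-1 letters, 9.59% the TEAD letters and 0.408% the NF-kB letters. A match is a description of the letters and not of binding, which was not measured. FGB and CD36 also held the TEAD letters, 19 and 93 bases before the start, while NT5E and OAZ1 held none of the 3 motifs in this window. MAPRE1, a gene described below that was lower with hairpin 2, held the AP-1 letters 238 bases before the start. Also without any of the 3 motifs were VGF, ANTXR2, H2BC4, GNB1, UNC13A and ARID5B, all higher with hairpin 2 and described below. The same held for GRIN2D, MRPL51, TRANK1, RBBP9, ARRDC3, ZDHHC7 and CYBRD1, which were lower.

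OAZ1 was the 1 gene called lower with hairpin 2. It codes for ornithine decarboxylase antizyme 1, which binds ornithine decarboxylase and sends it to the proteasome, and lies on chromosome 19 (2269486 to 2273488). In PA-1 it stood at 238 CPM in the control, 232 CPM with hairpin 1 and 48.1 CPM with hairpin 2. In TOV21G it stood at 217, 232 and 31.1 CPM. Control and hairpin 1 were therefore side by side in both lines, and hairpin 2 alone was low. The difference was -2.27 (counting SE 0.05) in PA-1 and -2.89 (0.07) in TOV21G, and the blocked log2 fold change was -2.58 (SE 0.25, adjusted p = 0.0353, edgeR). OAZ2, a paralog, differed by 0.01 and 0.11 in the 2 lines. ODC1, the enzyme that antizyme controls, had 209, 342 and 220 CPM in PA-1 and 159, 244 and 268 CPM in TOV21G, so hairpin 2 was below hairpin 1 in PA-1 and above it in TOV21G.

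**Figure D1:**
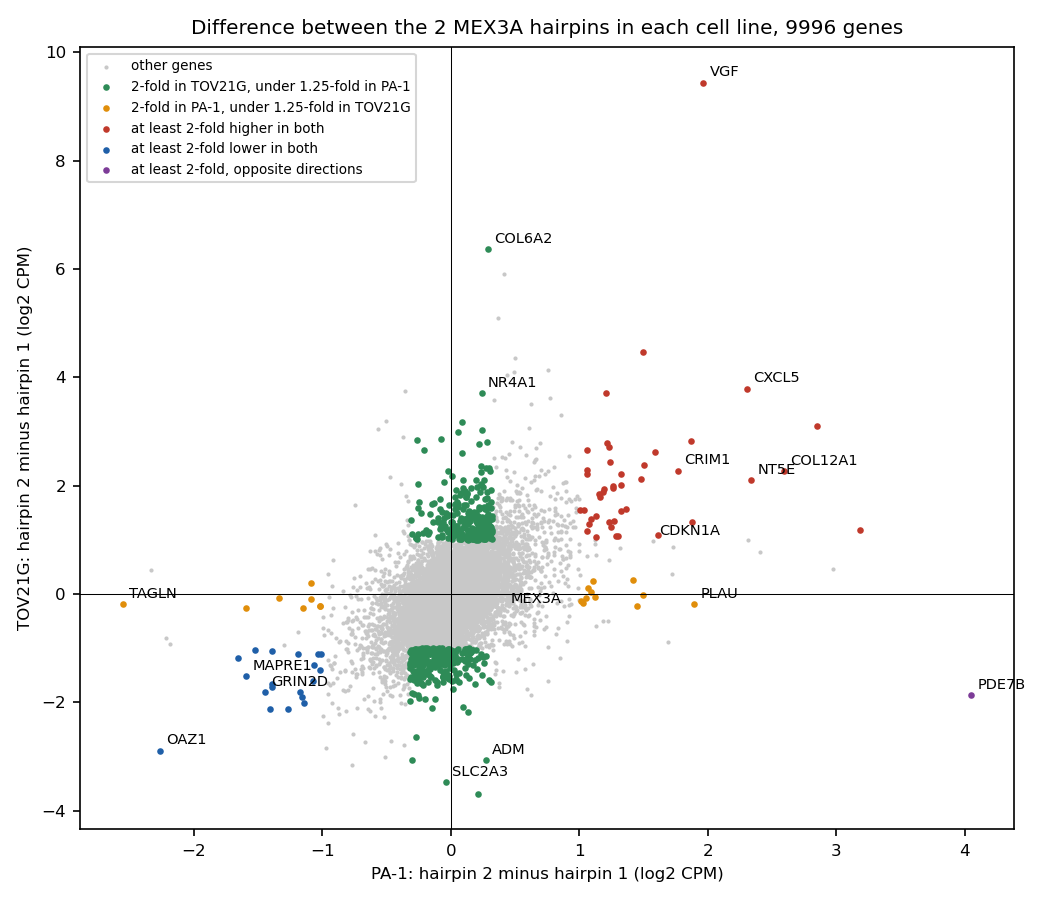
Each point is a gene with a mean of at least 5 CPM over the hairpin libraries of each line (9996 genes). The x axis is hairpin 2 minus hairpin 1 in PA-1 and the y axis the same in TOV21G, in log2 CPM, coloured by the classes in the text. Genes at least 2-fold higher in both lines (43) lie at the upper right and those lower in both (19) at the lower left, and the vertical spread is wider than the horizontal.

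Beyond the test, genes were counted by size in each line. At least a 2-fold difference in the same direction in both lines was seen for 149 genes that were higher with hairpin 2 (0.961% of 15508) and 72 that were lower (0.464%), and 69 differed at least 2-fold in opposite directions (0.445%). Scaling by total counts gave 129 higher and 106 lower, and the deposited TPM gave 43 and 41. Among the 9996 genes with a mean of at least 5 CPM in each line, 43 were higher in both (0.43%), 19 lower in both (0.19%) and 1 opposite (0.01%). The higher and lower counts were 44 and 20 with DESeq2 size factors, 37 and 27 with total counts and 23 and 29 with TPM. Without regard to size, 4688 genes were higher in both lines (30.2%) and 4688 lower in both (30.2%), a gene with no count in a line being counted in neither. The counts were 3606 and 6036 with total counts and 3219 and 6522 with TPM. The 2 differences had a Pearson correlation of 0.50 across those 9996 genes, which are not independent replicates, and each line's difference comes from 1 pair of libraries. The SD of the differences was 0.311 in PA-1 and 0.690 in TOV21G.

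The 12 genes with the largest difference in both lines at this level included, for hairpin 2 above hairpin 1, CXCL5, COL12A1, NT5E, VGF, ANTXR2, CRIM1, H2BC4, GNB1, UNC13A, LYPLA1 and ARID5B. Distinct kinds of position against the control could be told apart among them. ANTXR2, the capillary morphogenesis protein that serves as an anthrax toxin receptor, showed the first kind: it had 13.8, 11.9 and 43.8 CPM in PA-1 and 14.8, 16.1 and 115 CPM in TOV21G, so that hairpin 1 matched the control and hairpin 2 stood above it. ARID5B, a chromatin-binding factor, was alike, with 3.90, 4.43 and 11.6 CPM in PA-1 and 114, 86.8 and 258 CPM in TOV21G. CXCL5, above, belongs here too.

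GNB1 and LYPLA1 showed the second kind, with hairpin 2 near the control and hairpin 1 below it. GNB1, a beta subunit of heterotrimeric G proteins, stood in PA-1 at 362 CPM in the control, 171 CPM with hairpin 1 and 486 CPM with hairpin 2. In TOV21G it stood at 532, 143 and 745 CPM. LYPLA1, an acyl-protein thioesterase, had 220, 103 and 288 CPM in PA-1 and 156, 41.1 and 180 CPM in TOV21G. For both genes hairpin 1 was the 1 low library of each line. Their blocked log2 fold changes of 1.95 (SE 0.29, adjusted p = 0.124) and 1.80 (SE 0.25, adjusted p = 0.108) did not pass with edgeR, whereas DESeq2 gave adjusted p-values of 7.10e-07 and 1.02e-06.

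The third kind had libraries on both sides of the control or both hairpins off it. VGF, a secreted neuropeptide precursor, differed most: hairpin 1 left 17 counts in TOV21G and hairpin 2 gave 12863 (864 CPM), with 20.2 CPM in the control. In PA-1 the values were 9.13, 41.3 and 162 CPM. The ratio of hairpin 2 to hairpin 1 was 3.92 (95% counting interval 3.60 to 4.26) in PA-1 and 771 (481 to 1320) in TOV21G, and the unequal ratios left an adjusted p of 0.409 (edgeR). UNC13A, a presynaptic priming factor, had 6.99, 4.37 and 12.5 CPM in PA-1 and 7.15, 0.593 and 15.7 CPM in TOV21G. CRIM1, a transmembrane protein that binds BMPs, had 38.9, 53.7 and 183 CPM in PA-1 and 370, 235 and 1139 CPM in TOV21G, with a log2 fold change of 2.03 (SE 0.25, adjusted p = 0.0762, edgeR; 9.91e-13, DESeq2). H2BC4, a histone H2B gene, had 2.96, 2.79 and 8.65 CPM in PA-1 and 21.6, 57.6 and 356 CPM in TOV21G, and reads of near-identical H2B genes may be split among them.

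In the other direction the 12 genes included OAZ1, MAPRE1, GRIN2D, MRPL51, TRANK1, RBBP9, ARRDC3, CANT1, SKI, ZDHHC7 and CYBRD1. MAPRE1, the microtubule plus-end protein EB1, stood in PA-1 at 287 CPM in the control, 295 CPM with hairpin 1 and 97.7 CPM with hairpin 2, and in TOV21G at 251, 194 and 67.7 CPM. Its reagents differed by -1.59 (counting SE 0.04) and -1.52 (0.05), the closest pair of values among the 12, with an adjusted p of 0.108 by edgeR and 1.37e-09 by DESeq2. MRPL51, a protein of the mitochondrial ribosome, had 58.2, 63.1 and 23.7 CPM in PA-1 and 67.4, 60.3 and 13.8 CPM in TOV21G.

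Hairpin 2 was the 1 low library in each line for both genes. CANT1, a calcium-dependent nucleotidase of the Golgi, had 63.4, 64.4 and 28.5 CPM in PA-1 and 76.5, 101 and 28.7 CPM in TOV21G. SKI, a corepressor of SMAD signalling, had 162, 162 and 72.7 CPM in PA-1 and 70.2, 116 and 30.8 CPM in TOV21G. ZDHHC7, a palmitoyltransferase, had 91.5, 95.6 and 43.1 CPM in PA-1 and 71.7, 92.6 and 23.0 CPM in TOV21G. Their adjusted p-values ran from 0.150 to 0.162 by edgeR and from 0.00252 to 0.00418 by DESeq2. RBBP9, a serine hydrolase, had 28.8, 40.6 and 15.4 CPM in PA-1 and 83.3, 70.4 and 21.4 CPM in TOV21G.

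ARRDC3, an arrestin-like adaptor, differed in kind from the genes before it. It had 11.1 CPM in the PA-1 control, 46.8 CPM with hairpin 1 and 14.7 CPM with hairpin 2, and 188, 354 and 156 CPM in TOV21G, so hairpin 1 was high and hairpin 2 near the control. CYBRD1, a ferric reductase, had 14.9, 23.4 and 10.2 CPM in PA-1 and 27.7, 41.0 and 19.0 CPM in TOV21G, with the control between the hairpins. GRIN2D, a subunit of the NMDA receptor, also had the control between them, at 10.6, 18.3 and 6.61 CPM and 21.2, 30.9 and 8.73 CPM. TRANK1 had 12.4, 11.3 and 4.22 CPM in PA-1 and 18.4, 38.6 and 12.2 CPM in TOV21G.

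**Figure D2:**
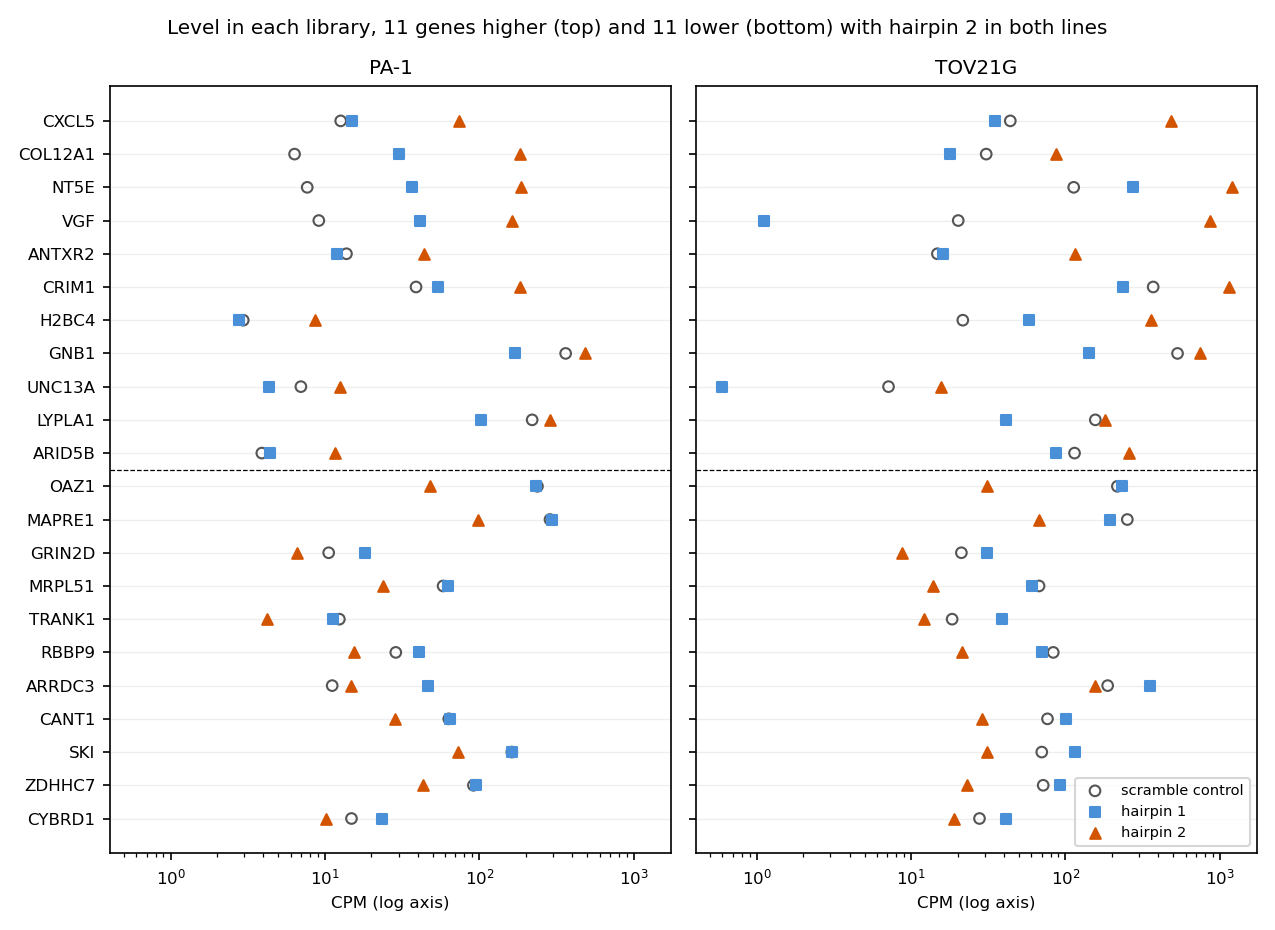
Level in CPM (log axis) of 22 of the 24 genes with the largest same-direction difference in both lines, with 1 marker per library (open circle control, square hairpin 1, triangle hairpin 2). For OAZ1 the control and hairpin 1 markers lie together between 217 and 238 CPM and the hairpin 2 marker stands at 48.1 and 31.1 CPM, while for GNB1 and LYPLA1 the hairpin 1 marker stands apart.

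The position of the control was then counted for all 62 genes at least 2-fold different in the same direction in both lines and at 5 CPM or more. Each hairpin is set against the same control library, so the counts describe these libraries and share that library's error. Of the 43 higher genes, hairpin 2 was the farther from the control in both lines for 23 (53.5%) and hairpin 1 for 10 (23.3%). Of the 19 lower genes the counts were 12 (63.2%) and 3 (15.8%). Over all 9996 genes of that level, hairpin 2 was the farther in both lines for 38.0% and hairpin 1 for 18.4%. One hairpin within 1.5-fold of the control in both lines and the other beyond it was seen with hairpin 2 as the departing reagent for 8 of the 43 and 11 of the 19. With hairpin 1 departing the counts were 6 of the 43 (CXorf56, EIF2S2, GNB1, LYPLA1, MAGED1 and USO1) and 1 of the 19 (ARRDC3). Over all 9996 genes they were 228 and 72. The 62 genes were chosen for a 2-fold difference between the hairpins, which itself favours 1 hairpin lying off the control. The shares of the 62 and of the 9996 therefore cannot be compared.

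A stricter count asked for at least 2-fold from the control in the same direction in both lines with one hairpin and within 1.5-fold with the other. With hairpin 1 departing, 5 of the 9996 genes were lower and 0 higher. The 5 were GNB1, LYPLA1, EIF2S2, CXorf56 and GPR75-ASB3, the last a read-through locus that shares reads with its neighbours. The genes named for this count were chosen after their values were seen. EIF2S2, the beta subunit of the initiation factor that carries the first tRNA, had 178, 87.1 and 218 CPM in PA-1 and 203, 63.8 and 184 CPM in TOV21G. CXorf56 had 42.9, 21.0 and 48.1 CPM in PA-1 and 20.9, 7.65 and 29.6 CPM in TOV21G. In each of these genes the hairpin 1 library was the low one in both lines.

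With hairpin 2 departing, 16 genes were lower and 13 higher. The lower genes included OAZ1, MAPRE1, MRPL51, CANT1 and ZDHHC7 described above, and the lamin B receptor LBR, the DNA polymerase delta subunit POLD2 and the histone H4 methyltransferase KMT5A. LBR had 276, 240 and 128 CPM in PA-1 and 90.7, 69.1 and 28.4 CPM in TOV21G. Others were RNH1, SIPA1L3, SLC25A33, SUMF1 and VMA21, and 2 copies of the 28S ribosomal RNA (RNA28SN2 and RNA28SN3), whose reads cannot be assigned to 1 copy. The libraries were poly(A) selected, and whether the 28S level goes with that step or with the hairpin was not tested. The 13 higher genes included CXCL5, ANTXR2, ARID5B, the secreted stress cytokine GDF15 and RND3, a small GTP-binding protein that acts on the actin cytoskeleton. RND3 had 22.3, 22.7 and 57.1 CPM in PA-1 and 40.3, 53.5 and 216 CPM in TOV21G. Without the limit on the other hairpin, 8 genes were lower and 30 higher than the control by at least 2-fold in both lines with hairpin 1, and 29 and 94 with hairpin 2.

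**Figure D3:**
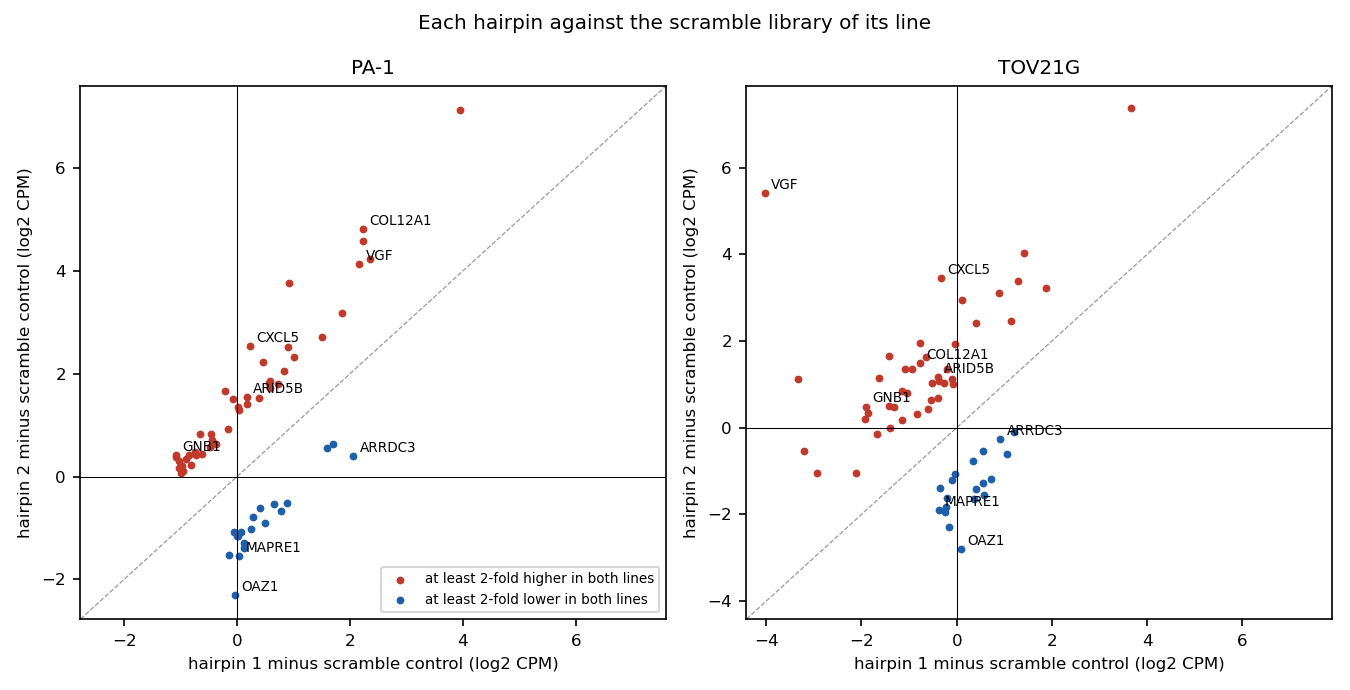
Each point is 1 of the 62 genes at least 2-fold different in the same direction in both lines. The x axis is hairpin 1 minus control and the y axis hairpin 2 minus control in log2 CPM, with PA-1 at left and TOV21G at right; the dashed line marks equal values. The higher genes lie above the dashed line and the lower genes below it, as their choice fixes, with OAZ1 and MAPRE1 close to x = 0 in PA-1. GNB1 lies at -1.08 on the x axis in PA-1 and -1.90 in TOV21G.

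Genes that differed in one line and not the other were taken as at least 2-fold in one line and under 25% apart in the other, with at least 5 CPM in both. In PA-1 there were 11 higher (0.11% of 9996) and 8 lower (0.08%). In TOV21G there were 270 higher (2.7%) and 264 lower (2.64%), which became 192 and 436 under scaling by total counts and 171 and 385 with the deposited TPM. The interaction of line and hairpin has no residual degree of freedom, so no difference between the lines was tested here or below. The larger number in TOV21G goes with the wider spread of all differences in that line, given above.

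In PA-1 the leading higher genes were PLAU, RGS2, TFPI2, ETS1, SHC3, NME1-NME2, ERV3-1-ZNF117 and PLK2. PLAU, the urokinase plasminogen activator, stood in PA-1 at 51.1 CPM in the control, 127 CPM with hairpin 1 and 474 CPM with hairpin 2. In TOV21G it stood at 329, 664 and 583 CPM. It was above the control with both hairpins in both lines, and the reagents differed by 1.90 (counting SE 0.03) in PA-1 against -0.19 (0.02) in TOV21G. TFPI2, a protease inhibitor that also marks clear cell carcinoma, had 3.34, 20.2 and 55.3 CPM in PA-1 and 41.2, 519 and 443 CPM in TOV21G. RGS2, a regulator of G protein signalling, had 9.25, 13.3 and 37.6 CPM in PA-1 and 4.48, 6.53 and 6.45 CPM in TOV21G. ETS1, a transcription factor, had 25.7, 38.8 and 104 CPM in PA-1 and 91.7, 121 and 145 CPM in TOV21G. NME1-NME2 and ERV3-1-ZNF117 are read-through loci that share reads with their parent genes.

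The lower genes of PA-1 were led by TAGLN and MYL9, which code for the smooth muscle proteins transgelin and a myosin light chain. TAGLN stood in PA-1 at 31.3 CPM in the control, 163 CPM with hairpin 1 and 27.7 CPM with hairpin 2, so hairpin 1 was the library that stood apart. In TOV21G its levels were 6.56, 7.91 and 6.92 CPM. The differences were -2.55 (counting SE 0.07) and -0.19 (0.19). MYL9 was alike, at 106, 212 and 83.8 CPM in PA-1 and 9.03, 11.1 and 10.5 CPM in TOV21G. SMIM10L2A (-1.59), LRRK1 (-1.15), LINC02035 (-1.09) and ZNF503 (-1.09) followed in PA-1. LUZP6 and MTPN, both at 125, 76.2 and 37.5 CPM in PA-1, are annotated on shared sequence and count as 1 measurement.

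In TOV21G the leading higher genes were COL6A2, NR4A1, FBN1, ITGA1, NEXN, CD9, SRSF12 and MCAM. COL6A2, a collagen VI chain, had 0 counts with hairpin 1 and 149 counts (10.0 CPM) with hairpin 2 in TOV21G, at least 50.6-fold higher against the floor of 3 counts per library, with 0.195 CPM in the control. In PA-1 it had 52.8, 49.6 and 60.5 CPM. FBN1, the microfibril protein fibrillin 1, stood at 33.4, 50.5 and 455 CPM in TOV21G and 106, 104 and 110 CPM in PA-1. NR4A1, an immediate early nuclear receptor, had 3.31, 4.42 and 59.3 CPM in TOV21G and 3.34, 4.85 and 5.75 CPM in PA-1. For these genes hairpin 2 was the high library in TOV21G. In PA-1 the hairpins were close to each other, while NR4A1 was higher with both than in the control.

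CD9 and SRSF12 were near the control level with hairpin 2 and low with hairpin 1 in TOV21G. CD9, a tetraspanin, had 43.7 CPM in the control, 6.13 CPM with hairpin 1 and 45.4 CPM with hairpin 2. SRSF12, a splicing factor, had 25.5, 3.76 and 27.9 CPM. Their PA-1 differences were -0.08 (counting SE 0.06) and -0.26 (0.11). ITGA1, the integrin alpha 1 chain, had 16.4, 9.30 and 77.1 CPM in TOV21G, and MCAM, an adhesion molecule, had 20.7, 15.6 and 110 CPM, both with hairpin 2 as the high library.

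The leading lower genes of TOV21G were PEDS1-UBE2V1, SLC2A3, ADM, SELENOP, TCF19, IFI16, ADCY9 and RGL1. SLC2A3, the glucose transporter GLUT3, had 41.0 CPM in the TOV21G control, 140 CPM with hairpin 1 and 12.6 CPM with hairpin 2, and between 1119 and 1271 CPM in the 3 PA-1 libraries. ADM, the vasodilator peptide adrenomedullin, had 5.39, 15.6 and 1.75 CPM in TOV21G and 66.9, 69.5 and 84.0 CPM in PA-1. SELENOP, the selenium carrier, had 1.69, 11.5 and 1.28 CPM in TOV21G. In these genes hairpin 1 was above and hairpin 2 below the control of TOV21G. TCF19 differed from them, since hairpin 1 (57.6 CPM) was near the control (68.8 CPM) and hairpin 2 was low (9.14 CPM). PEDS1-UBE2V1 is a read-through locus.

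**Figure D4:**
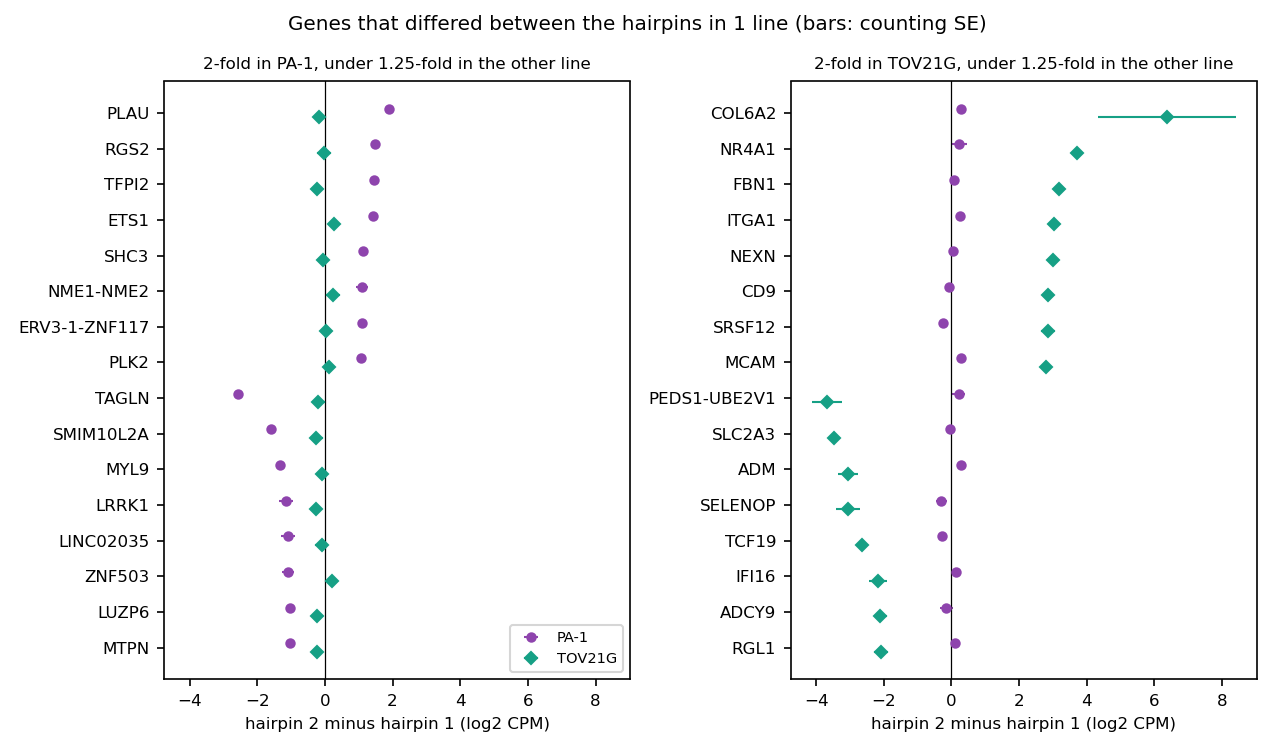
Hairpin 2 minus hairpin 1 in log2 CPM for the 16 leading genes at least 2-fold different in PA-1 (left) and in TOV21G (right), with circles for PA-1 and diamonds for TOV21G. Bars are the counting SE of each pair of libraries, not a spread between replicates, and the widest bar belongs to COL6A2, which had 0 counts with hairpin 1 in TOV21G.

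Other genes were taken from those with a mean over the hairpin libraries of at least 5 CPM in one line and under 1 CPM in the other, whatever the difference at that low level. MEGF10, an engulfment receptor, was at 0 in all TOV21G libraries and at 21.8, 10.7 and 82.1 CPM in PA-1. ST8SIA4, a polysialyltransferase, had 0.441, 4.37 and 25.9 CPM in PA-1 and at most 0.330 CPM in TOV21G. In TOV21G, PTGS1, the cyclooxygenase 1 gene, had 2.53, 0.264 and 38.3 CPM, and EEF1A2, a tissue-restricted elongation factor, had 7.28, 1.85 and 68.1 CPM. IGFBP3, a carrier of insulin-like growth factors, had 18.4 CPM in the TOV21G control, 364 CPM with hairpin 1 and 60.4 CPM with hairpin 2. MXRA5 had 109, 88.6 and 16 CPM there. CACNG4, CNTFR and CYP26A1 were lower with hairpin 2 in PA-1, by 1.33, 1.05 and 1.02 on the log2 scale.

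At 5 CPM or more, PDE7B, a cAMP phosphodiesterase, was the 1 gene at least 2-fold different in opposite directions. It had 0.378, 0.485 and 9.97 CPM in PA-1 and 44.1, 72.3 and 19.7 CPM in TOV21G, which is a difference of 4.05 (counting SE 0.51) and -1.87 (0.09). LOX, the collagen crosslinking enzyme lysyl oxidase, had 1.76, 30.8 and 99.7 CPM in PA-1 and 60.8, 61.3 and 33.1 CPM in TOV21G. NDRG1, a hypoxia-regulated gene, had 13.3, 20.1 and 34.1 CPM in PA-1 and 103, 69.0 and 35.1 CPM in TOV21G. In the other sense, RUNX2, the osteoblast transcription factor, had 9.69, 9.04 and 5.34 CPM in PA-1 and 1.17, 2.84 and 9.14 CPM in TOV21G. FHL2 had 20.5, 25.5 and 16.8 CPM in PA-1 and 54.5, 54.3 and 115 CPM in TOV21G.

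Genes named in the study's theme were followed in each library. MDM2, the ligase that degrades p53 and also its target, had 164, 367 and 502 CPM in PA-1 and 377, 1058 and 654 CPM in TOV21G. It was above the control with both hairpins, with hairpin 2 the higher in PA-1 and hairpin 1 the higher in TOV21G. CDKN1A, the cell cycle inhibitor p21, had 18.9, 35.4 and 105 CPM in PA-1 and 692, 1103 and 2168 CPM in TOV21G. Both hairpins exceeded the control and hairpin 2 exceeded hairpin 1 in both lines, by 1.57 (counting SE 0.07) and 0.98 (0.01), with an adjusted p of 0.238 by edgeR and 0.000272 by DESeq2.

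Of 40 p53 target genes tested, 21 were higher with hairpin 2 in both lines (52.5%) and 3 lower in both (7.5%), beside 30.2% each way over all genes, and the list's median difference was 0.29 in PA-1 and 0.21 in TOV21G, where the median over all genes was 0 in each line. None passed edgeR's adjusted threshold, and 7 were higher and 0 lower at an unadjusted p under 0.05, for which the shares over all genes were 6.15% and 4.58%. GDF15 led, with 5.35, 8.01 and 19.2 CPM in PA-1 and 318, 296 and 697 CPM in TOV21G (adjusted p = 0.195, edgeR; 6.58e-06, DESeq2). GADD45A, a DNA damage response gene, differed by 0.73 and 0.97, and RRM2B, a ribonucleotide reductase subunit, by 0.60 and 0.87. In TOV21G 15 members were lower with hairpin 2, and in PA-1 5, beside 7594 and 7522 of all 15508 genes. All gene lists here and below were chosen with earlier results of these data known. Their shares and counts are descriptions and were not tested as sets.

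SLC7A11, the cystine importer that protects from ferroptosis, had 364, 419 and 423 CPM in PA-1 and 17.8, 34.9 and 14.4 CPM in TOV21G. GPX4, the lipid peroxide reductase, had 121, 107 and 118 CPM in PA-1 and 143, 98.3 and 113 CPM in TOV21G. Of 30 ferroptosis suppressors 12 were higher and 7 lower with hairpin 2 in both lines (40% and 23.3%), shares near the 30.2% each way over all genes, with medians of 0.13 and -0.23. Of 30 ferroptosis drivers 15 were higher and 4 lower in both (50% and 13.3%, beside the same 30.2%). The list's medians were 0.11 and 0.08, the latter below 0 under total counts and TPM. GCLM, a subunit of the enzyme that makes the glutathione precursor, differed by 0.88 and 1.36 (adjusted p = 0.238, edgeR; 0.0490, DESeq2). TXNRD1, a thioredoxin reductase, had 165, 170 and 229 CPM in PA-1 and 194, 187 and 911 CPM in TOV21G, and the ferritin heavy chain gene FTH1 had 705, 617 and 752 CPM and 6631, 3542 and 10624 CPM.

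The genes of the silencing pathway itself were also read. DICER1 had 290, 273 and 281 CPM in PA-1 and 252, 210 and 213 CPM in TOV21G. AGO2, which cleaves paired targets, had 401, 384 and 431 CPM in PA-1 and 224, 186 and 433 CPM in TOV21G, a difference of 0.17 (counting SE 0.02) and 1.22 (0.03). NEAT1, a nuclear RNA that scaffolds paraspeckles, had 119, 270 and 273 CPM in PA-1 and 361, 1133 and 1068 CPM in TOV21G, above the control with both hairpins and alike between them. Of 17 genes of small RNA processing 7 were higher and 4 lower with hairpin 2 in both lines (41.2% and 23.5%), near the 30.2% each way over all genes. Of 14 sensors and effectors of the innate response to double-stranded RNA 1 was higher and 7 lower in both lines (medians -0.02 and -0.32). These shares were 7.14% and 50%, beside 30.2% each way over all genes. Of 33 interferon-stimulated genes 5 were higher and 11 lower in both lines (15.2% and 33.3%, beside the same 30.2%). The list's medians were 0.04 in PA-1, which is negative under total counts and TPM, and -0.49 in TOV21G. SAMD9, an antiviral effector, had 1.76, 7.34 and 4.42 CPM in PA-1 and 19.3, 31.5 and 15.8 CPM in TOV21G. IFIT3, which binds viral RNA with its partners, had 0.567, 1.58 and 3.51 CPM in PA-1 and 10.1, 7.78 and 18.1 CPM in TOV21G. They differed in opposite directions, and neither passed with edgeR (adjusted p = 0.376 and 0.361).

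Of 40 genes of the G1/S transition and replication 33 were lower in both lines and 0 higher in both, beside 30.2% each way over all genes, and the medians were -0.17 in PA-1 and -0.40 in TOV21G. None passed edgeR's adjusted threshold, and 5 were lower and 0 higher at an unadjusted p under 0.05, for which the shares over all genes were 4.58% and 6.15%. MCM3, a subunit of the replicative helicase, had 352, 293 and 156 CPM in PA-1 and 130, 72.2 and 30.0 CPM in TOV21G (log2 fold change -1.09, SE 0.22, adjusted p = 0.238, edgeR; 0.00357, DESeq2). GINS2, of the same helicase complex, had 61.4, 51.6 and 30.9 CPM in PA-1 and 15.0, 9.69 and 3.43 CPM in TOV21G. Relative to the control, the list's median was -0.16 with hairpin 1 and -0.33 with hairpin 2 in PA-1, and -0.84 and -1.42 in TOV21G. Both reagents were thus below the control at the median, hairpin 2 the farther. Of 40 genes of G2/M and mitosis 22 were lower and 3 higher in both lines (55% and 7.5%, beside 30.2% each way over all genes). The list's medians were -0.05 and -0.16. MKI67 had 599, 522 and 453 CPM in PA-1 and 637, 308 and 208 CPM in TOV21G.

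Targets of YAP and TEAD respond to cell spreading and tension. Of 21 such genes 11 were higher and 3 lower in both lines, that is 52.4% and 14.3% beside 30.2% each way over all genes (medians 0.36 and 0.18). Among them 1 (NT5E) passed edgeR's adjusted threshold as higher, as did 0.0451% of all genes. CCN1, a matricellular target, had 29.1, 106 and 265 CPM in PA-1 and 177, 328 and 1533 CPM in TOV21G (adjusted p = 0.150, edgeR; 1.01e-05, DESeq2). AXL, a receptor kinase, had 66.2, 114 and 185 CPM in PA-1 and 130, 131 and 384 CPM in TOV21G. Of 34 mesenchymal and matrix genes 19 were higher and 6 lower in both lines (55.9% and 17.6%, beside 30.2% each way over all genes). The list's medians were 0.19 in PA-1 and 0.89 in TOV21G, and 1 member (COL12A1) passed. COL8A1 had 0.567, 10.5 and 96.3 CPM in PA-1 and 51.8, 35.3 and 80.7 CPM in TOV21G. VIM, the intermediate filament vimentin, had 2159, 1646 and 2978 CPM in PA-1 and 5898, 1036 and 2334 CPM in TOV21G, so both hairpins were below the control in TOV21G.

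Summed over the 36 matrix genes in the files, the level was 5798 CPM in the PA-1 control, 7491 CPM with hairpin 1 and 10006 CPM with hairpin 2. In TOV21G it was 13215, 7252 and 11612 CPM, so for this sum the order of the reagents was the same in both lines and the place of the control was not. VIM alone held 5898, 1036 and 2334 CPM of the TOV21G sums. Over the 34 matrix genes tested, the median difference from the control was positive with both hairpins in both lines. It was 0.37 with hairpin 1 and 0.46 with hairpin 2 in PA-1, and 0.21 and 0.89 in TOV21G. In cultures of 1 line, fewer cells of a state and less RNA per cell cannot be told apart. Of 15 blood cell markers, PTPRC, CD3E, MS4A1 and LYZ were at most 0.134 CPM in every library and HBA1, HBA2 and HBB were at 0. Their summed level was 54.3 to 88.4 CPM in PA-1, nearly all of it PECAM1 (51.8 to 82.1 CPM), and 3.05 to 8.94 CPM in TOV21G. The 3 markers tested were CD68, ITGAM and PECAM1. CD68, a lysosomal glycoprotein, had 1.70, 1.70 and 4.73 CPM in PA-1 and 2.34, 2.31 and 6.72 CPM in TOV21G, and its part in the other results was not tested.

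Of 21 NF-kB targets and cytokines 14 were higher and 1 lower in both lines, that is 66.7% and 4.76% beside 30.2% each way over all genes (medians 0.36 and 0.69). Among them 1 (CXCL8) passed edgeR's adjusted threshold as higher, as did 0.0451% of all genes. At an unadjusted p under 0.05, 11 were higher and 0 lower, for which the shares over all genes were 6.15% and 4.58%. These counts describe a list chosen with earlier results of these data known. IL11, a cytokine of the interleukin 6 family, had 1.26, 3.82 and 9.0 CPM in PA-1 and 0.260, 4.75 and 63.4 CPM in TOV21G. PTX3, a soluble pattern receptor, had 2.14, 3.64 and 7.73 CPM in PA-1 and 6.43, 3.30 and 16.7 CPM in TOV21G. IL6 was at or near 0 in PA-1 and at 26.4, 43.7 and 102 CPM in TOV21G. Of 30 immediate early genes 15 were higher and 3 lower in both (50% and 10%, beside 30.2% each way over all genes). The other 12 were mixed. The list's medians were 0.32 and 0.55, and no member passed the adjusted threshold. EGR1 had 115, 126 and 228 CPM in PA-1 and 40.6, 20.6 and 56.2 CPM in TOV21G, and DUSP5, a phosphatase of ERK, had 19.0, 20.9 and 38.0 CPM and 63.3, 61.5 and 606 CPM.

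Of 23 genes of the unfolded protein response, many of them chaperones of the endoplasmic reticulum, 18 were higher and 2 lower in both lines, that is 78.3% and 8.70% beside 30.2% each way over all genes (medians 0.22 and 0.73). HSPA5, the chaperone BiP, had 698, 684 and 872 CPM in PA-1 and 1049, 1106 and 2563 CPM in TOV21G (adjusted p = 0.432, edgeR). Of 31 proteasome subunits 23 were higher and 4 lower in both (74.2% and 12.9%, beside the same 30.2%), with medians of 0.13 and 0.26. The differences of the 4 leading subunits lay between 0.19 and 0.35 in PA-1 and between 0.51 and 0.72 in TOV21G. SQSTM1, the autophagy receptor p62, had 113, 112 and 210 CPM in PA-1 and 460, 269 and 632 CPM in TOV21G (adjusted p = 0.261, edgeR; 0.000604, DESeq2). None of these lists held a gene past edgeR's adjusted threshold.

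Wnt target genes and antagonists were lower with hairpin 2 in both lines for 7 of 15 (46.7%) and higher for 2 (13.3%), beside 30.2% each way over all genes (medians -0.32 and -0.42). AXIN2, a feedback target, had 118, 169 and 136 CPM in PA-1 and 10.7, 18.6 and 6.18 CPM in TOV21G. RNF43, a ligase that removes Wnt receptors, had 23.2, 27.6 and 14.3 CPM in PA-1 and 9.94, 17.2 and 5.31 CPM in TOV21G. The hairpin 1 library was the highest of each line for both genes.

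Of 37 genes of hypoxia and glycolysis 32 were higher with hairpin 2 in PA-1 and 27 lower in TOV21G. Of all 15508 genes tested, 7711 were higher in PA-1 and 7594 lower in TOV21G. In both lines 7 of the 37 were higher and 3 lower (18.9% and 8.11%, beside 30.2% each way over all genes), with medians of 0.15 and -0.52. The 4 members with the smallest p (ANGPTL4, P4HA2, ERO1A and SLC2A1) were higher in both lines. PKM and LDHA are given after their values were seen. PKM, a pyruvate kinase, had 990, 1204 and 1334 CPM in PA-1 and 1863, 1553 and 674 CPM in TOV21G. LDHA, lactate dehydrogenase A, had 449, 584 and 598 CPM in PA-1 and 1991, 2190 and 1184 CPM in TOV21G. ANGPTL4, an inhibitor of lipoprotein lipase, had 3.77, 12.7 and 305 CPM in TOV21G. Of 39 nuclear genes of oxidative phosphorylation 29 were higher in PA-1 and 32 lower in TOV21G (medians 0.08 and -0.28). In both lines 7 of the 39 were higher and 10 lower (17.9% and 25.6%, beside 30.2% each way over all genes). NDUFA4, lower with hairpin 2 in both lines and so unlike most members in PA-1, had 99.4, 102 and 76.2 CPM in PA-1 and 103, 131 and 41.9 CPM in TOV21G. ATF4 targets, of amino acid supply, had medians of 0.13 and -0.36 over 31 genes, and 14 genes of fatty acid synthesis had 0.15 and -0.45. Whether the lines differed was not tested.

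Ribosomal protein genes had a small median difference (0.14 in PA-1 and 0.06 in TOV21G, the latter below 0 under total counts and TPM), with 43 of 78 higher and 6 lower in both lines (55.1% and 7.69%, beside 30.2% each way over all genes). A few members lay far from that median. RPLP0, a protein of the ribosomal stalk, had 2313, 1839 and 1329 CPM in PA-1 and 1416, 1380 and 209 CPM in TOV21G, so hairpin 2 was the low library in TOV21G. RPS24, of the small subunit, had 582, 414 and 575 CPM in PA-1 and 1113, 150 and 1055 CPM in TOV21G, so hairpin 1 was the low library there. RPLP1, RPLP0's partner, had 592, 490 and 426 CPM in PA-1 and 468, 554 and 145 CPM in TOV21G. None of the 3 passed with edgeR (adjusted p from 0.378 to 0.432), and ribosomal protein genes share reads with pseudogenes.

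**Figure D5:**
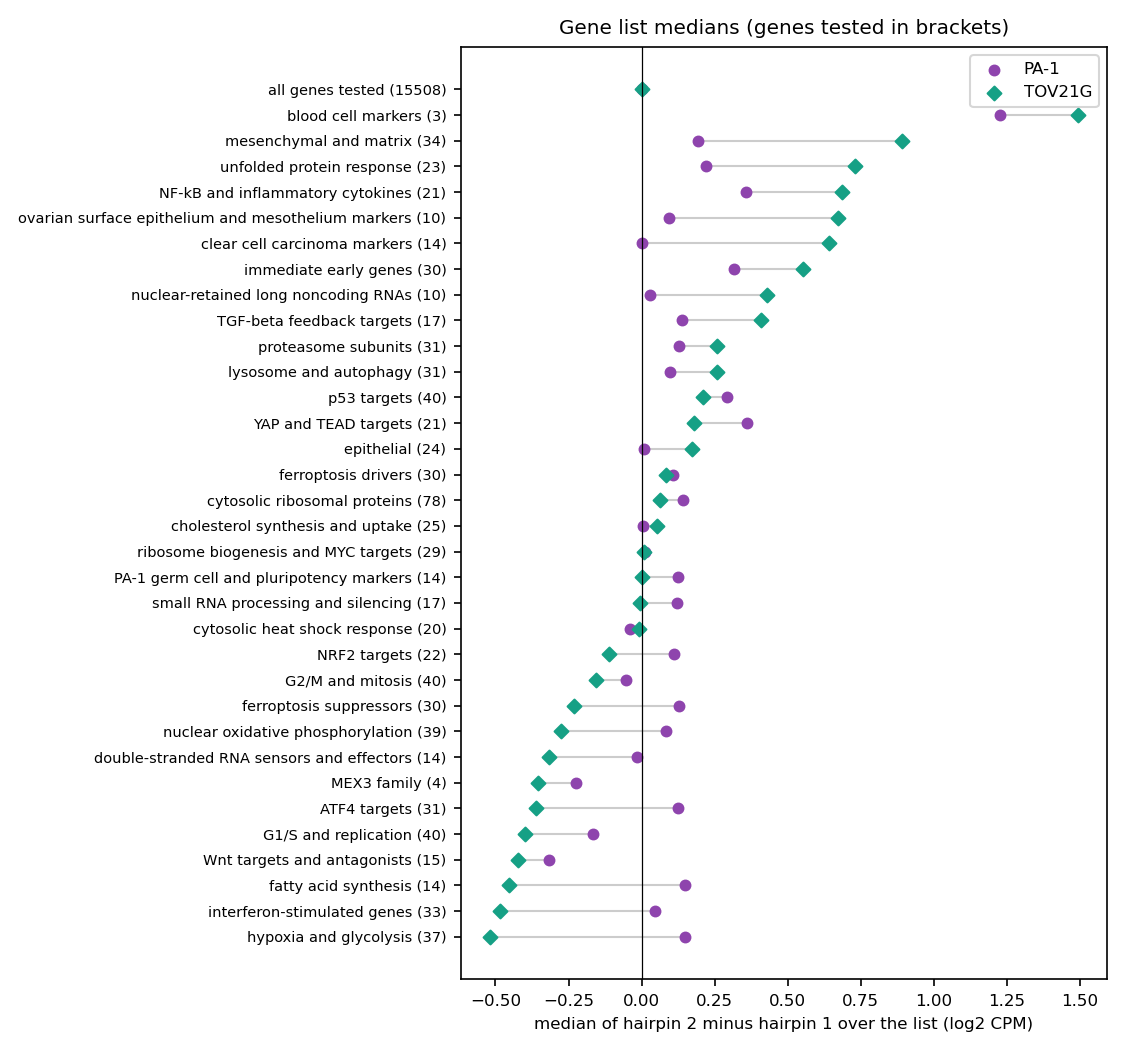
Median of hairpin 2 minus hairpin 1 (log2 CPM) over each gene list in PA-1 (circles) and TOV21G (diamonds), ordered by the TOV21G value below the row of all genes tested. Matrix, unfolded protein response and NF-kB lists lie to the right of 0 in both lines, G1/S and Wnt lists to the left in both, and the hypoxia list at 0.15 and -0.52.

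Promoter letters were counted for the genes that differed at least 2-fold in both lines at 5 CPM or more. Of the 43 higher genes 32 had a promoter in the RefSeq table, and 3 of them (9.38%) held the AP-1 letters, 5 (15.6%) the TEAD letters and 1 (3.12%) the NF-kB letters. Of the 19 lower genes 14 had one, with 1 (7.14%), 0 and 0. Over the 8221 genes of that level with a promoter the shares were 3.33%, 9.22% and 0.401%. No comparison was drawn from counts this small.

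Gene length was set beside the differences. Across the 9996 genes, effective length had a Spearman correlation of -0.09 with the PA-1 difference and 0.02 with the TOV21G difference. The median difference was 0.07 in PA-1 and 0.03 in TOV21G in the shortest of 5 length classes, and -0.01 and 0.02 in the longest.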

How the data were processed

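RNA from 6 libraries was poly(A) selected and sequenced as dUTP stranded libraries, per the labels' protocols. The authors deposited RSEM tables of 39282 genes with expected counts, TPM and FPKM, per the file headers; the submitters' processing notes name cutadapt 1.12, STAR 2.5.3a, RSEM 1.2.31, edgeR 3.26.8 and hg38. The strand setting of the counting is not given in the sources used here. Deposited expected counts were rounded and scaled by TMM over the 6 libraries. Genes that edgeR's expression filter kept over the 4 hairpin libraries (15508) were fitted with edgeR 4.0.16 in R 4.3.3 (quasi-likelihood test, hairpin plus cell line as a block, 4 libraries, Benjamini and Hochberg adjustment at 0.05). The pairing comes from the cell line. Log2 CPM used a prior count of 2, and differences within a line have counting error only. The deposited TPM served as an alternative scale and FPKM was not used. DESeq2 1.42.0, other scalings, filters, designs and fold thresholds were alternatives. The blocked fit was also run on simulated counts in which each effect was the same in both lines. That setting does not test the fit where the lines differ.

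Named genes were the MEX3 family, those past the adjusted threshold, the 12 per direction with the largest smaller-of-lines difference at a mean of 5 CPM, the 8 per direction and line that differed in 1 line, 3 per direction expressed in 1 line, 6 per pattern of opposite sign, 4 members per list with the smallest p, and 9 genes always named. Members and lists were chosen with earlier results of these data known. Intervals are 95% exact. Hairpin sequences are not used here. Some genes that these rules name are not reported here.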

Additional observations from a re-analysis of the deposited data

Results flagged for a closer look

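For the genes below, hairpin 2 was above hairpin 1 in one line and below it in the other. A gene was listed when its difference lay beyond the counting error in each line. All but MEX3A, MEX3C, MDM2 and MALAT1 had been named for their opposite signs, so their place here follows from that choice. With 1 library per hairpin and line the difference between the lines was not tested. Values are the TOV21G difference minus the PA-1 difference on the log2 CPM scale. MEX3A, the target, had -0.69 and its paralog MEX3C 0.32. Higher in PA-1 and lower in TOV21G were PDE7B (-5.92), LOX (-2.58), TMTC1 (-2.36), KCNJ2 (-2.03), PIM2 (-1.76), NDRG1 (-1.73) and MDM2 (-1.15). Lower in PA-1 and higher in TOV21G were RUNX2 (2.39), FHL2 (1.68), SMPD1 (1.56), PYCR3 (1.42), WNT5A (1.38), COMMD3-BMI1 (1.31) and MALAT1 (1.2). COMMD3-BMI1 is a read-through locus that shares reads with its parent genes.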

How the results depend on the processing

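The 7 higher and 1 lower calls of edgeR became 68 and 29 with DESeq2 (4 of the 8 shared), 11 and 1 with TMM over the 4 hairpin libraries (chosen after seeing the data) and 383 and 187 of 24060 genes with no filter. They became 0 and 0 with all 6 libraries in the fit (1605 genes at an unadjusted p under 0.05), with total counts (1635), with at least 5 CPM in 2 libraries (1409) and with no replicate block (57). Without the pairing by cell line, none of the 8 edgeR calls was kept. Of the 8 genes, adjusted p-values ran from 0.126 to 0.450 with all 6 libraries and from 0.0525 to 0.0827 with total counts. The 149 genes at least 2-fold higher in both lines became 546 at 1.5-fold, 35 at 3-fold, 43 with TPM and 43 at 5 CPM or more, and the 72 lower genes 408, 9, 41 and 19, or 114 with a prior count of 0.5. The 69 opposite genes became 349, 12, 12 and 1, 114 with a prior count of 0.5 and 30 with one of 5. The 19 PA-1 genes became 87 at 1.5-fold, 3 at 3-fold and 7 with TPM, and the 534 TOV21G genes 2081 at 1.5-fold, 91 at 3-fold and 884 when under 1.5-fold was allowed in the other line. The cause of these moves was not tested, beyond the fewer genes that a stricter threshold or filter leaves. Leaving out a line leaves 1 library against 1, a value with no test. Genes with few counts, such as MMP1 and CXCL8 in PA-1, are limited by depth.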
